A study of Rattus norvegicus with 32 samples.

Results

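Thyroid hormone acts through a small set of genes, and their mRNA levels were followed here in the liver and small intestine of lactating rats. The members were 9 gene symbols: the receptors Thra and Thrb, their dimer partner Rxra, the corepressor Ncor1, the deiodinase Dio1, the hormone-responsive genes Klf9, Thrsp and Gpd2, and the coactivator Ppargc1a. A member was taken as the transcript cluster (the probes that report 1 gene) that the probe annotation pairs with that symbol and no other, which gave 1 cluster for each of 8 members of the 19434 clusters on the array. Ncor1 had no such cluster and was not analysed here. Affymetrix Rat Exon 1.0 ST arrays were used to measure expression in Sprague-Dawley rats killed at hour 16, either lactating at day 10 to 11 or age-matched virgin females as the control. The liver, duodenum, jejunum and ileum were studied. RNA of 4 rats was combined into a pool, the same rats made up a pool in each tissue, and 4 pools of each state in 4 tissues gave 32 arrays in 8 groups. The methods describe the intestinal material as mucosal scrapes, whereas the labels name whole homogenates, and large litters had been reduced soon after birth. The mean of the hepatocyte markers was 13.32 on the log2 scale in control liver and 3.57 to 3.87 in the 3 control segments, and that of the enterocyte markers was 6.53 in liver and 13.09 to 13.26 in the segments.

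The thyroid secretes mainly thyroxine, which deiodinases in target tissues convert to the active hormone triiodothyronine (T3). T3 binds the nuclear receptors encoded by Thra and Thrb, which sit on DNA with a retinoid X receptor, hold corepressors when empty and exchange them for coactivators when T3 is bound. In rodent liver T3 acts mainly through the beta receptor and raises genes of lipogenesis, fatty acid oxidation and cholesterol breakdown, while in the intestinal epithelium the alpha receptor takes part in cell renewal and maturation.

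The starts of 3 of these genes are shown because Klf9 was the member lowered most widely and because each receptor gene was called lower in 1 of the more distal segments. Each sequence is the RefSeq promoter window of GRCr8, from 250 bases before to 50 bases after the annotated start, written 5′ to 3′ on the strand of the gene, and capitals mark GGGCGG or its complement CCGCCC, the GC box.
Klf9, chr1:230126396-230126695, plus strand: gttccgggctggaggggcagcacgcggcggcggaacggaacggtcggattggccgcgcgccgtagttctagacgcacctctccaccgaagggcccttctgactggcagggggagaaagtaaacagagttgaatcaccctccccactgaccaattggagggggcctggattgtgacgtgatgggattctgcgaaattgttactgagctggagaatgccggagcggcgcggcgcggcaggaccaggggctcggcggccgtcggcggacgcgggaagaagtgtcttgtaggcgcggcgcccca
Thra, first start, chr10:84197891-84198190, plus strand: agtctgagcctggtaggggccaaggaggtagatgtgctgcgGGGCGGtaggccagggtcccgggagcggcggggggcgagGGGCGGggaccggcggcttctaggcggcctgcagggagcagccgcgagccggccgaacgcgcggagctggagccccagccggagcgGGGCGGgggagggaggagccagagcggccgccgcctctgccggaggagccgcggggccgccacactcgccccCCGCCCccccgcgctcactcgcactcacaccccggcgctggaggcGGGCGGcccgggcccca
Thrb, chr15:10461397-10461696, minus strand: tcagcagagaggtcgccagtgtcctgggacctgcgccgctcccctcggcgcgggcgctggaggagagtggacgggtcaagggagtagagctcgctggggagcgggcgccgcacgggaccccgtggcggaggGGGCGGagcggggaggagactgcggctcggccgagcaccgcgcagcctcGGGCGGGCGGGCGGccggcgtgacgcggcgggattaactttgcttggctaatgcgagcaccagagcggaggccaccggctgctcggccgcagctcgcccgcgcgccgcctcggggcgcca
The Thra and Thrb windows were 79.7% and 76.0% G and C, with 5 and 4 GC boxes (overlapping matches counted), the Klf9 window was 65.3% G and C with 0 GC boxes, and the median over all promoters was 51.7%. All 8 genes had an entry, 9 windows in all since Thra has a further start, and a GC box on either strand was found in 5 of the 9, those of Gpd2, Rxra, Thra, Thrb and Thrsp, against 33.1% of 33469 promoters. The letters AGGTCA, a motif that nuclear receptors bind, were on neither strand in any of the 9 windows and on at least 1 strand of 16.2% of all promoters. These windows are short, so the count describes only their letters.

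All members except Rxra were lower in lactating rats in at least 1 tissue. Klf9 fell in all 3 segments of the intestine, Thrb and Thrsp fell in the jejunum, Thra and Ppargc1a fell in the ileum, and Dio1 and Gpd2 fell in the liver. A gene was called when its adjusted p in limma (Benjamini-Hochberg over all 19434 clusters) was under 0.05, and differences are log2 values of lactating less control, each with the standard error of the fit. In the liver 2 of 8 members were called lower, against 1.17% of all clusters. Of the segments, the duodenum had 1 of 8, against 0.278%, the jejunum 3 of 8, against 0.463%, and the ileum 3 of 8, against 0.803%. The members were chosen with earlier results of these data known, so setting them against all clusters is no test of the set. A model that also held the number of the pool took control and lactating pools of equal number as pairs. The pairing was inferred from these data. In that model 3 members were called lower in the liver, against 2.49% of all clusters. At the study's thresholds on its mixed model, with unadjusted p-values, Klf9 in liver, Thra in jejunum and Thrb in ileum were called lower too. None was called higher in any tissue, by limma or by the study's mixed model, where 0.715%, 0.365%, 0.345% and 0.479% of all clusters were called higher by limma in liver, duodenum, jejunum and ileum, and 1 (Rxra in the duodenum) was higher at an unadjusted p under 0.05. All 4 lactating pools lay below all 4 control pools for 3 members in the liver (2.65% of all clusters), for 2 in duodenum (1.98%), 5 in jejunum (2.78%) and 4 in ileum (4.03%). The median difference of the 8 members was -0.27, -0.09, -0.42 and -0.36 in liver, duodenum, jejunum and ileum, where the median of all clusters was 0.01, 0.04, 0.01 and 0.02. In whole tissue RNA, fewer cells of a type and less RNA per cell cannot be told apart.

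**Figure D1:**
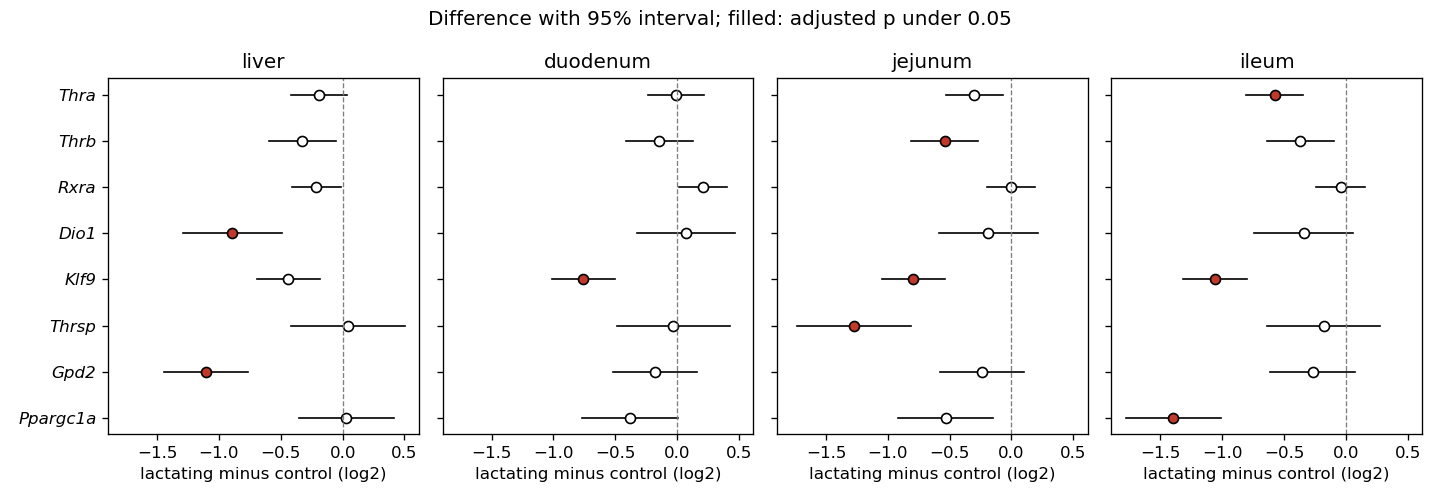
Lactating minus control difference (log2, x axis) of each of the 8 members in liver, duodenum, jejunum and ileum, with points for the fitted difference, bars for its 95% confidence interval and filled points for adjusted p under 0.05. The called differences run from -0.54 (Thrb, jejunum) to -1.40 (Ppargc1a, ileum), all below 0.

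The 4 control tissues differed in the level of all 8 members, against 51.7% of all clusters in the same F test. Between 2 control tissues, 40.6% (duodenum), 43.5% (jejunum) and 43.3% (ileum) of all clusters differed from liver, 13.1% between duodenum and jejunum, 20.8% between duodenum and ileum and 26.1% between jejunum and ileum. Liver held the highest level of Thrb (8.73), Rxra (10.60), Dio1 (10.43), Klf9 (9.12) and Thrsp (13.56), and the lowest of Thra (5.83), Gpd2 (6.91) and Ppargc1a (6.02), as mean log2 values of 4 control pools. The 2 receptors were thus ordered oppositely, each by its own probes: Thra was lower in liver than in jejunum by 1.75 ± 0.10 (adjusted p = 5.77e-15), and Thrb was higher there by 1.53 ± 0.12 (adjusted p = 5.86e-12). Thrsp, a regulator of lipogenesis first known as a T3-induced liver gene, showed the widest range, from liver to duodenum (5.54). Liver was above duodenum by 8.02 ± 0.20 (adjusted p = 1.15e-23) and above jejunum (7.20) by 6.36 ± 0.20 (adjusted p = 3.53e-21).

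Along the intestine the members fell into different orders. Thra was highest in jejunum (7.59), and ileum (7.24) and duodenum (7.20) did not differ beyond their spread (adjusted p = 0.843). Thrb was 7.09 in duodenum, 7.19 in jejunum and 7.34 in ileum, with adjusted p between 0.164 and 0.670 for the 3 pairs. Rxra was 8.73 in jejunum and 8.61 in ileum (adjusted p = 0.381), both above duodenum (8.37). Dio1 declined from jejunum (6.54) to ileum (6.06) to duodenum (5.11), with adjusted p = 0.0453 for jejunum against ileum (0.0539 with pool number in the model) and 0.000181 for ileum against duodenum. Klf9 in ileum (7.80) was above duodenum (7.47; adjusted p = 0.0374, and 0.0647 with pool number in the model), while jejunum (7.53) could be set apart from neither (adjusted p = 0.0864 and 0.817). Ppargc1a did not differ beyond error between duodenum and jejunum (8.96 in each, adjusted p = 0.991) and lower in ileum (7.002) by 1.95 ± 0.17 than in jejunum (adjusted p = 9.96e-10). Gpd2 ranked jejunum (10.09) and duodenum (9.80; adjusted p = 0.253) above ileum (9.35), and Thrsp in ileum (5.99) and duodenum (5.54) did not differ beyond error (adjusted p = 0.132). The arrays of all tissues were normalized to 1 distribution, so these orders are relative to the other genes of a tissue.

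**Figure D2:**
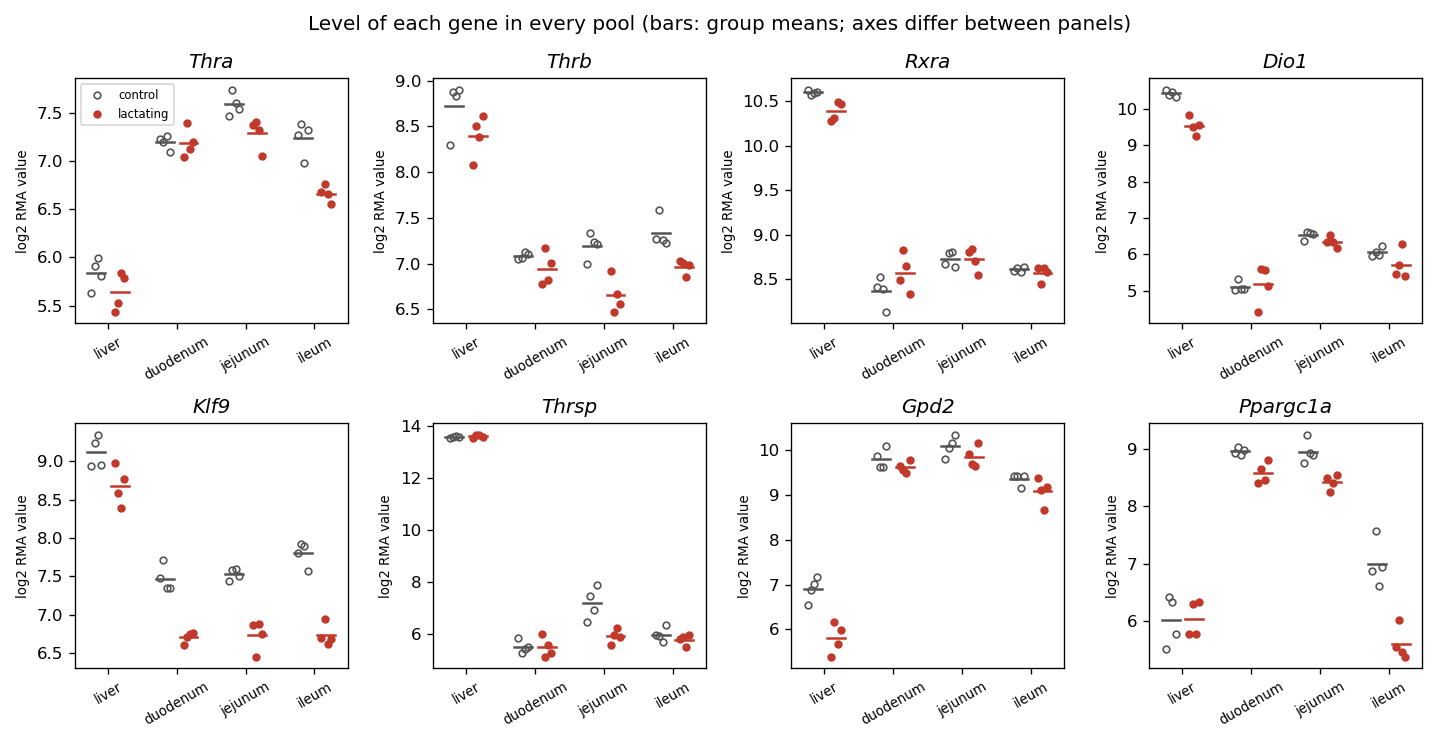
Log2 value (y axis) of each of the 8 members in every pool, by tissue (x axis), open for control and filled for lactating, with a point for each pool and a bar at the mean of 4 (y ranges differ). Thrsp in liver sits near 13.6 in both states, whereas the Klf9 pools of the 2 states are apart in each intestinal segment.

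Thra, the gene of the alpha receptor, decreased in the ileum. Its 4 control ileum pools, in the order of pools 1 to 4, read 7.27, 7.38, 6.98 and 7.32, and the lactating pools 6.68, 6.76, 6.66 and 6.55. Every lactating pool was below every control pool, a difference of -0.58 ± 0.11 or 67.0% of the control level (adjusted p = 0.00488). The call was lost without control pool 2 (adjusted p = 0.0520) and with the ileum arrays fitted alone (0.105). In the jejunum the lactating pools also lay below the control pools, at 7.05 to 7.40 against 7.46 to 7.74, and the difference of -0.30 ± 0.11 did not pass (adjusted p = 0.277). This jejunal difference was called at the study's thresholds on the mixed model. Liver differed by -0.19 ± 0.11 (adjusted p = 0.536) and duodenum by -0.01 ± 0.11 (adjusted p = 0.996; 95% confidence interval -0.24 to 0.22), with overlapping pools in both.

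Thrb, the main receptor gene of hepatocytes, decreased in the jejunum. Control jejunum pools 1 to 4 read 6.99, 7.33, 7.24 and 7.21, and lactating pools 6.92, 6.47, 6.67 and 6.56. The groups did not overlap, although lactating pool 1 was close to control pool 1, and the difference was -0.54 ± 0.13 or 68.8% of the control level (adjusted p = 0.0452). That call rests on a narrow margin: 9 of 16 alternatives ended it, among them leaving out control pool 2, 3 or 4 or lactating pool 2, 3 or 4 (adjusted p = 0.121 to 0.207). In the ileum the lactating pools were again all lower (6.85 to 7.02 against 7.23 to 7.58), by -0.37 ± 0.13 (adjusted p = 0.208). This ileal difference was called at the study's thresholds on the mixed model. In the liver, control pools read 8.29, 8.88, 8.83 and 8.90 and lactating pools 8.08, 8.51, 8.39 and 8.62, with control pool 1 below 3 of the lactating pools. The liver difference of -0.33 ± 0.13 did not pass (adjusted p = 0.273), and without control pool 1 it was -0.47 (adjusted p = 0.0492). The duodenum differed by -0.14 ± 0.13 (adjusted p = 0.846). Of 8 T cell markers 4 were measured. All 4 were below 0 in jejunum (median -0.49) and in ileum (median -0.19), against 47.0% and 46.1% of all clusters. By limma and by the mixed model 0 were called there, 2 were lower in jejunum at an unadjusted p under 0.05 and 1 (Cd8b, adjusted p = 0.0212) was called there with pool number in the model. Their part in the receptor differences was not tested.

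Rxra, the retinoid X receptor that pairs with both thyroid hormone receptors and with many other nuclear receptors, was called in no tissue. Liver pools lay apart, 10.28 to 10.49 in lactation against 10.57 to 10.63, with a difference of -0.21 ± 0.10 (adjusted p = 0.355). The duodenum went the other way by 0.21 ± 0.10 (adjusted p = 0.513), lactating above control in all 4 pairs of equal number though the ranges overlapped. Jejunum and ileum were within 0.05 of 0, with 95% confidence intervals of -0.20 to 0.19 and -0.24 to 0.15. Of 15 measured receptor partners (17 listed, among them other retinoid X receptors, corepressor subunits and coactivators), 0 were called by limma or the mixed model in any tissue. At an unadjusted p under 0.05, 5 were lower in liver, 1 in jejunum and 4 in ileum, and 2 were higher in duodenum and 1 in jejunum. The share of all clusters passing this unadjusted threshold was not counted, here or for the other lists. With pool number in the model 1 was called higher in duodenum (Nr1h3, adjusted p = 0.0179) and 1 lower in ileum (Crebbp, 0.0377).

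Dio1, the type 1 deiodinase, which makes T3 from thyroxine in liver and is itself raised by T3, decreased in the liver. Control liver pools 1 to 4 read 10.53, 10.39, 10.47 and 10.34, and lactating pools 9.84, 9.51, 9.25 and 9.57. The groups were clearly apart, with the lactating level at 53.9% of control, a difference of -0.89 ± 0.19 (adjusted p = 0.0104; 0.0614 without control pool 3). In the ileum the difference was -0.34 ± 0.19 (adjusted p = 0.561), in the jejunum -0.19 ± 0.19 (adjusted p = 0.794) and in the duodenum 0.07 ± 0.19 (adjusted p = 0.964), with overlapping pools. The liver difference less the mean intestinal difference was -0.74 ± 0.21, which did not pass (adjusted p = 0.0574) but was called under 4 of 13 alternatives, with the lowest p without lactating pool 1 (0.00181).

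Of 9 measured genes of hormone supply (12 listed: carriers, transporters and deiodinases), 2 were called lower in liver, 1 lower in duodenum, and 1 lower and 1 higher in jejunum. Of all clusters, 1.17%, 0.278%, 0.463% and 0.345% were called so. The study's mixed model, with p-values adjusted in the same way, called 1 lower in liver and 1 lower in jejunum. It called 0 lower in duodenum and 0 higher in jejunum. Serpina7, the thyroxine-binding globulin secreted by liver, fell there from 9.20 ± 0.50 to 8.13 ± 0.26 (SD, n = 4 pools), by -1.07 ± 0.17 (limma adjusted p = 0.000259). Slc16a10, a membrane carrier of aromatic amino acids and thyroid hormones, fell in liver by -0.48 ± 0.12 (adjusted p = 0.0415). Iyd, which recovers iodide from iodotyrosines in the thyroid, fell in jejunum by -1.48 ± 0.21 (adjusted p = 0.000204) and in duodenum by -0.97 ± 0.21 (adjusted p = 0.0196). Ttr, the carrier transthyretin, stood at 13.64 in control and 13.63 in lactating liver, and its jejunal level rose from 5.19 to 5.94 (adjusted p = 0.0273). Dio2 and Dio3, the other deiodinases, lay at 2.33 to 2.87 and 4.12 to 4.49 in all 8 groups, below every array median, and were called in no tissue. With pool number in the model Iyd was also called lower in ileum (adjusted p = 0.0252), and Sult1b1, a sulfotransferase that conjugates thyroid hormones, was called higher in liver (0.0256) and duodenum (0.0468).

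Klf9, a Krüppel-like transcription factor and immediate T3 target that glucocorticoids also raise, decreased in every intestinal segment. In the duodenum control pools 1 to 4 read 7.47, 7.71, 7.35 and 7.34, and lactating pools 6.61, 6.71, 6.75 and 6.76. In the jejunum control pools read 7.44, 7.59, 7.59 and 7.51, and lactating pools 6.87, 6.45, 6.88 and 6.75. In the ileum control pools read 7.81, 7.93, 7.90 and 7.57, and lactating pools 6.70, 6.95, 6.63 and 6.69. No lactating pool reached a control pool of its own segment, and the lactating means of the segments were alike, at 6.71, 6.74 and 6.74. The differences were -0.76 ± 0.12 in duodenum (adjusted p = 0.000635), -0.79 ± 0.12 in jejunum (adjusted p = 0.000604) and -1.06 ± 0.12 in ileum (adjusted p = 1.04e-05), or 59.1%, 57.7% and 48.0% of control. The duodenal and ileal calls were kept under all 16 alternatives, and the jejunal call was lost with the jejunum arrays fitted alone (adjusted p = 0.0698).

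In liver, Klf9 control pools read 8.93, 9.24, 9.35 and 8.95 and lactating pools 8.97, 8.59, 8.39 and 8.76. Lactating pool 1 lay among the controls and the other 3 lay below them. The difference of -0.44 ± 0.12 did not pass (adjusted p = 0.0676), but it did with pool number in the model (0.0460) and without lactating pool 1 (0.0315). The difference between tissues was not called for Klf9 (interaction adjusted p = 0.162). In the duodenum the pancreatic acinar markers moved with the state, all 8 of them called lower, against 0.278% of all clusters. Their pool means were 10.55 to 11.92 in control and 5.03 to 9.40 in lactation. Lactating pool 2, the one at 9.40, had a Klf9 value of 6.71. In jejunum and ileum, where Klf9 fell too, these markers averaged 3.92 to 4.79 in all pools of both states and none was called or passed an unadjusted p of 0.05. The part of acinar cells in the duodenal Klf9 difference was not tested.

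Of 8 measured further Klf family genes (12 listed), 2 were called lower in liver and 1 in ileum, against 1.17% and 0.803% of all clusters. The mixed model called 2 lower in liver and 0 in ileum. Klf10 fell in liver by -0.57 ± 0.13 (adjusted p = 0.0140) and Klf12 by -0.46 ± 0.10 (adjusted p = 0.0117), while Klf15, a glucocorticoid-induced member, fell in ileum from 5.84 ± 0.32 to 4.98 ± 0.48 (SD, n = 4 pools; difference -0.86 ± 0.20, limma adjusted p = 0.0213). Klf13 was called lower only with pool number in the model, in liver (adjusted p = 0.00970) and in ileum (0.0289). None of the 8 was called higher in any tissue, by limma, by the mixed model or with pool number in the model, and 1 was higher in duodenum at an unadjusted p under 0.05.

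Thrsp did not follow the other targets in liver, where its level is highest. Control liver pools read 13.51, 13.57, 13.59 and 13.56, and lactating pools 13.54, 13.66, 13.63 and 13.58. The ranges overlapped and the difference was 0.04 ± 0.22 (adjusted p = 0.976; 95% confidence interval -0.42 to 0.50), at values near the top of the array's range of 0.82 to 14.41. In the jejunum, control pools read 6.47, 7.49, 6.93 and 7.91, and lactating pools 5.60, 5.98, 6.23 and 5.89. All lactating pools were lower and less spread, and the level was 41.4% of control, a difference of -1.27 ± 0.22 (adjusted p = 0.00209; 0.237 with the jejunum arrays fitted alone). Duodenum and ileum differed by -0.03 ± 0.22 and -0.18 ± 0.22 (adjusted p = 0.990 and 0.867).

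Thrsp is also expressed in fat, and adipocyte markers moved with it in the jejunum. Adipoq, which encodes adiponectin, a hormone of fat cells, read 5.79, 6.41, 6.19 and 6.997 in control jejunum pools 1 to 4 and 2.93, 3.64, 3.63 and 3.43 in lactating pools (difference -2.94 ± 0.27, adjusted p = 1.51e-07). The control pools stood in the same order for Thrsp, Adipoq and Lpl, with pool 1 lowest and pool 4 highest, but not for the other 5 measured markers: pool 4 was lowest for Fabp4 and Cidec, pool 1 was highest for Lep and Retn, and pool 2 was lowest for Plin1. Of 7 measured adipocyte markers (8 listed), 2 were called lower in jejunum, Adipoq and Lpl, against 0.463% of all clusters. The mixed model called 1 lower there. In jejunum 6 of the markers were below 0, against 47.0% of all clusters, and Cidec was above 0. Their mean was 6.18 to 6.30 in control and 5.22 to 5.66 in lactating jejunum pools, and in the other tissues none was called or passed an unadjusted p of 0.05. The part of these cells in the Thrsp difference was not tested.

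**Figure D3:**
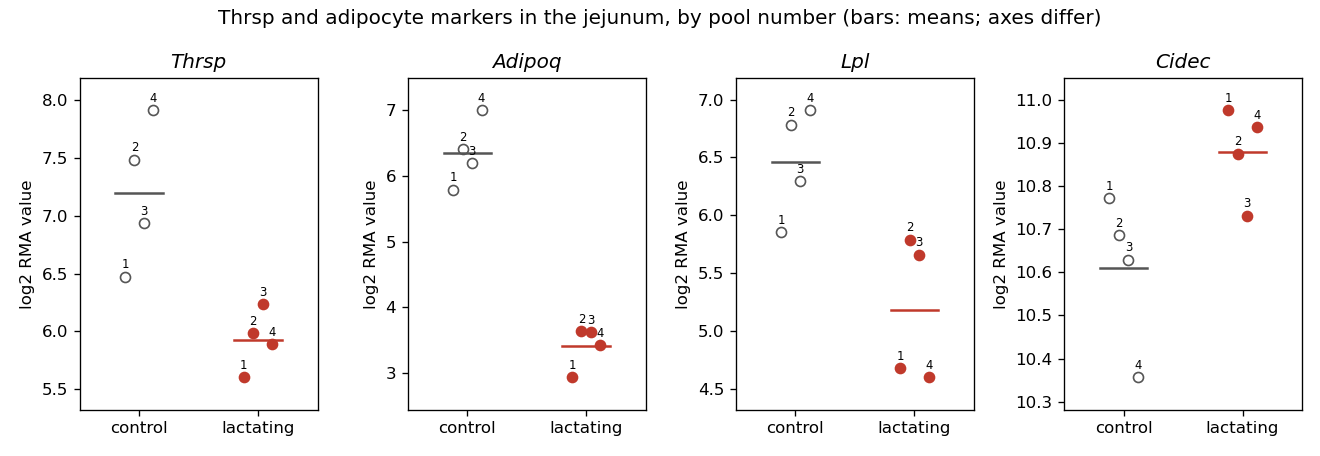
Log2 value (y axis, ranges differ) of Thrsp and of the adipocyte markers Adipoq, Lpl and Cidec in control and lactating jejunum (x axis), with a point for each numbered pool and a bar at the mean of 4. Control pools rank 1, 3, 2 and 4 from low to high for Thrsp, Adipoq and Lpl, and all lie above the lactating pools for these 3 genes, whereas Cidec lies mostly higher in lactation and its control pools rank in another order.

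Gpd2, the mitochondrial glycerol-3-phosphate dehydrogenase and a classical T3-induced enzyme of rat liver, decreased in the liver, where its level was lowest. Control liver pools 1 to 4 read 6.53, 6.89, 7.02 and 7.18, and lactating pools 5.38, 6.17, 5.67 and 5.99. The groups did not overlap, and the lactating level was 46.6% of control, a difference of -1.10 ± 0.17 (adjusted p = 0.000130; 0.0868 with the liver arrays fitted alone). The segments differed by -0.18, -0.24 and -0.27 (± 0.17 each) in duodenum, jejunum and ileum, with overlapping pools and no call. The liver difference was larger than the mean intestinal one by -0.87 ± 0.18 (adjusted p = 0.00454, against 2.05% of all clusters called in that contrast), and this call was kept under all 13 alternatives run.

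Ppargc1a, the coactivator of mitochondrial biogenesis and of several nuclear receptors, decreased in the ileum. Control ileum pools 1 to 4 read 6.88, 7.58, 6.61 and 6.94, and lactating pools 5.55, 6.02, 5.47 and 5.38. The lowest control pool was well above the highest lactating pool, and the level was 38.0% of control, a difference of -1.40 ± 0.19 (adjusted p = 6.81e-05; 0.0811 with the ileum arrays fitted alone). Lactating pools also lay below all control pools in the jejunum (8.25 to 8.54 against 8.75 to 9.25; -0.53 ± 0.19, adjusted p = 0.245) and in the duodenum (8.42 to 8.80 against 8.89 to 9.03; -0.38 ± 0.19, adjusted p = 0.565). In liver its pools overlapped widely, 5.77 to 6.33 against 5.52 to 6.42, with a difference of 0.03 ± 0.19. The liver difference stood above the mean intestinal one by 0.80 ± 0.20 (adjusted p = 0.0275), a call lost under 7 of 13 alternatives: with no pool block (0.0808), with array weights (0.0739), and without control pool 1 (0.100) or 4 (0.125) or lactating pool 2 (0.0766), 3 (0.0641) or 4 (0.105). Of 13 measured genes of the glycerol phosphate shuttle and of Ppargc1a's partners, 2 were called lower and 1 higher in liver (1.17% and 0.715% of all clusters). The mixed model called 1 lower and 0 higher there. None was called elsewhere, where 2 were lower and 1 higher in ileum at an unadjusted p under 0.05. Esrrg, an orphan receptor that Ppargc1a coactivates, fell in liver by -0.63 ± 0.14 (adjusted p = 0.0153) and Sirt1, a deacetylase that acts on Ppargc1a, by -0.57 ± 0.13 (adjusted p = 0.0173), while the glycerol channel gene Aqp9 rose by 0.57 ± 0.15 (adjusted p = 0.0485). Gpd1, the cytosolic partner of Gpd2, differed in liver by -0.08 ± 0.16 (adjusted p = 0.923). Esrra, another orphan receptor that Ppargc1a coactivates, was called higher in liver only with pool number in the model (adjusted p = 0.0436).

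Averaged over the 4 tissues, 5 of 8 members were lower in lactation, against 1.55% of all clusters. Klf9 differed by -0.76 ± 0.08 (adjusted p = 5.24e-07) and was called under all 14 alternatives, by the mixed model only narrowly (0.0494). Ppargc1a differed by -0.57 ± 0.11 (adjusted p = 0.00511), Gpd2 by -0.45 ± 0.10 (0.0133), Thrb by -0.35 ± 0.08 (0.0169) and Thra by -0.27 ± 0.07 (0.0297), kept under 12, 9, 8 and 7 of the 14 alternatives. Leaving out lactating pool 3 ended all 4 of these calls, at adjusted p of 0.0588, 0.119, 0.114 and 0.0906. The study's mixed model, with p-values adjusted here over all clusters, ended all 4 as well (0.198, 0.220, 0.164 and 0.135). All 4 had an unadjusted p under 0.05 in that model, the level that the study required of the state effect. With low clusters left out, the calls of Gpd2, Thrb and Thra were lost (0.0661, 0.0867 and 0.128). Leaving out control pool 2 or 4 ended those of Gpd2, Thrb and Thra, control pool 3 those of Thrb and Thra, and lactating pool 1 that of Thra (adjusted p = 0.0563 to 0.165). With pool number in the model Dio1 (adjusted p = 0.00652) and Thrsp (0.0139) were called too, against 8.23% of all clusters called lower in that model. Rxra, at -0.01 ± 0.06, was called in neither (adjusted p = 0.961 and 0.871).

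The difference between the tissues itself passed for 3 of 8 members, against 2.05% of all clusters: Ppargc1a (interaction adjusted p = 0.00404), Thrsp (0.0198) and Gpd2 (0.0293). The Ppargc1a call was kept under 13 of 14 alternatives and ended without lactating pool 4 (adjusted p = 0.0580). The Thrsp and Gpd2 calls were kept under 7 and 6. Leaving out control pool 2, 3 or 4 or lactating pool 1 or 4 ended both, as did lactating pool 2 for Thrsp and lactating pool 3 for Gpd2 (adjusted p = 0.0550 to 0.156). Other settings ended calls too: the mixed model that of Thrsp (0.0746), and no pool block (0.0968) and quantile normalization within tissue (0.167) that of Gpd2. Dio1 was called without lactating pool 1 (0.00336) and otherwise only with low clusters left out (0.0480), where Thra was called as well (0.0427).

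Genes that T3 is known to raise in liver did not move in 1 direction. Of 19 measured (24 listed), 2 were called lower and 2 higher in liver, 1 higher in jejunum and 1 lower in ileum. The shares of all clusters called so were 1.17%, 0.715%, 0.345% and 0.803%. The mixed model called 1 lower and 2 higher in liver, 0 higher in jejunum and 1 lower in ileum. Cpt1a, the gate enzyme of mitochondrial fatty acid oxidation, fell in liver from 10.61 ± 0.25 to 9.70 ± 0.36 (SD, n = 4 pools; difference -0.91 ± 0.13, limma adjusted p = 4.08e-05), and Pdk4, a kinase that shuts pyruvate dehydrogenase, fell there by -0.94 ± 0.25 (adjusted p = 0.0428). Cyp7a1, the rate-limiting enzyme of bile acid synthesis, rose in liver by 0.84 ± 0.20 (adjusted p = 0.0181), and the hepatic hormone gene Fgf21 rose by 1.20 ± 0.28 (adjusted p = 0.0207). Me1, malic enzyme and a classical T3 target of rat liver, differed by 0.51 ± 0.14 (adjusted p = 0.0542; 0.0329 with pool number in the model). The lipogenic regulator Srebf1 rose in jejunum by 0.71 ± 0.16 (adjusted p = 0.0263), and Pck1, a gluconeogenic enzyme, fell in ileum by -1.35 ± 0.24 (adjusted p = 0.00256). With pool number in the model 3 were called lower and 4 higher in liver, against 2.49% and 1.64% of all clusters. Pck1 (adjusted p = 0.0256), Me1 and Acaca (0.0223) were the ones added, and Pdk4 was called lower in duodenum (0.0413).

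Of 5 measured T3-responsive genes of the intestine (8 listed), 1 was called higher in duodenum and 1 lower in ileum, against 0.365% and 0.803% of all clusters. Slc10a2, the ileal bile acid carrier, rose in duodenum from 6.38 to 7.05 (0.67 ± 0.15, adjusted p = 0.0317) and stood at 12.50 and 12.68 in control and lactating ileum. Slc9a3, a sodium-proton exchanger of the brush border, fell in ileum by -0.91 ± 0.18 (adjusted p = 0.00535). Lct, lactase, differed in ileum by -1.76 ± 0.53 (adjusted p = 0.107; 0.0352 with pool number in the model), with pools spread by an SD of 1.07 in control and 1.77 in lactation. Alpi, intestinal alkaline phosphatase, was called in no tissue. Atp1b1, a sodium pump subunit, was called higher in liver only with pool number in the model (adjusted p = 0.0378).

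**Figure D4:**
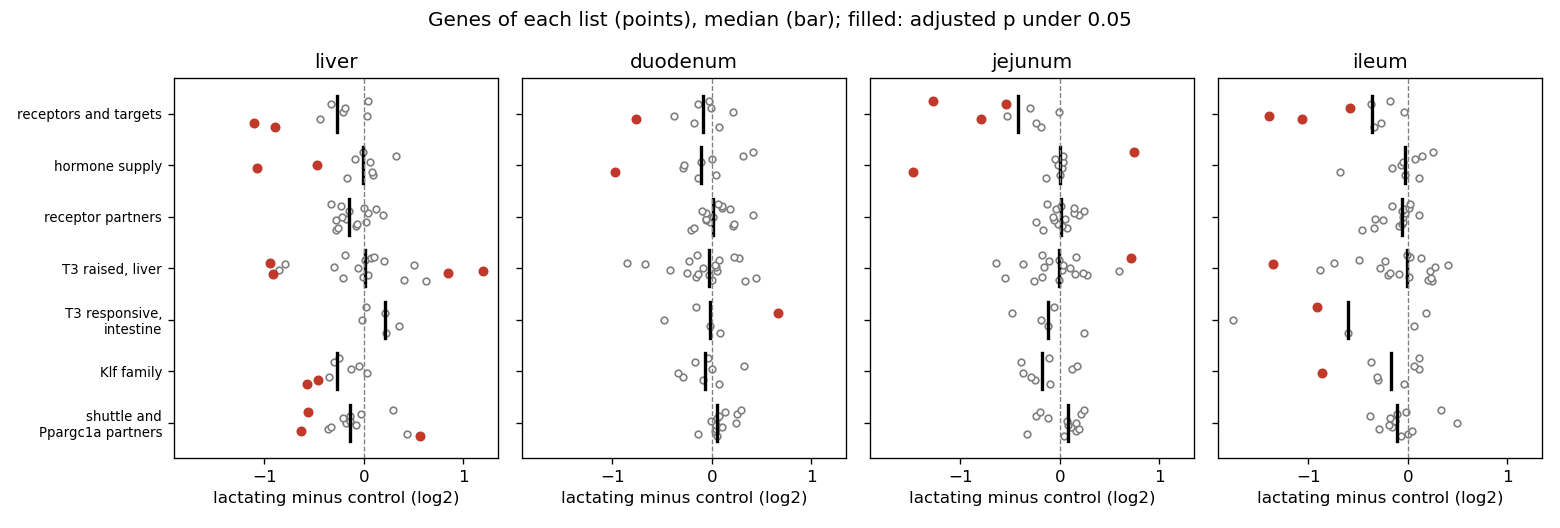
Lactating minus control difference (log2, x axis) of the measured genes of each list (y axis) in liver, duodenum, jejunum and ileum, with a point for each gene, filled where adjusted p is under 0.05, and a bar at the median. Called genes that T3 raises in liver lie on both sides of 0 there, from -0.94 (Pdk4) to 1.20 (Fgf21), and called receptors and targets lie only below 0.

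Over the 32 arrays, with the mean of each tissue subtracted, the members that tracked each other most closely were Thra and Ppargc1a (Pearson r = 0.795), Klf9 and Ppargc1a (0.794) and Thra and Thrb (0.769). These arrays share pools and the state difference. With the mean of each group subtracted instead, r was 0.531, 0.481 and 0.615, and for Thra and Klf9 it went from 0.662 to 0.025. The closest pair was then Thrb and Ppargc1a (0.692, against 0.715 with tissue means subtracted), and Thrb and Gpd2 stood at 0.560. Among 13214 other named genes, those most like Thra were Rcbtb1 (r = 0.873), Neo1 (0.871), Snx29 (0.844), Insr (0.826) and Ldlrad3 (0.825), and those most like Thrb were Rev3l (0.915), Nfrkb (0.907), Tti1 (0.906), Nfx1 (0.901) and Rcbtb1 (0.900). Within groups these r were 0.537 to 0.770 for Thra and 0.784 to 0.843 for Thrb. Klf9 was most like Irag2 (0.865), Lrp1 (0.849), Chd3 (0.849), Cirbp (0.844) and Trpm5 (0.844), where r within groups was between -0.05 and 0.35.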

How the data were processed

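Pooled RNA was hybridized to Rat Exon 1.0 ST arrays. The deposited table holds log2 values, which the authors made at gene level with RMA in Affymetrix Expression Console (background corrected, quantile normalized and summarized over the probes of a gene; versions: not given in the sources used here). The values were used as deposited, array medians lay between 4.68 and 4.87, no array was left out, and the number of arrays limits the precision. Symbols came from the probe annotation of the series (13327 clusters with 1 symbol, 620 with several, which stayed unnamed; 13215 named genes).

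limma 3.58.1, run in R 4.3.3 with statmod 1.5.0, fitted each of the 19434 clusters with 8 group means and the pool as a random block (correlation 0.163; prior degrees of freedom 3.24). P-values took the Benjamini-Hochberg adjustment over all clusters with a threshold of 0.05. They measure the spread of arrays within groups, with 1 pool correlation shared by all clusters. The study's mixed model instead sets the mean over tissues against each cluster's own spread between pools. With the same adjustment it called fewer members there, whereas the study set its calls by unadjusted p-values. Percent of control is the antilog of the log2 difference. The fit was tested on simulated data. The study's detection filter was not repeated.

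Pool numbers come from the labels. Deviations from the group means correlated at 0.105 to 0.555 between control and lactating pools of equal number and at -0.347 to 0.104 between others. On that ground the numbers were taken to pair the pools, since neither the labels nor the methods state a pairing across states. A fit with that number as a further fixed term (the replicate block) is given beside members and list genes whose call it changed. Its pool correlation was -0.0436, and the calls it added rest on this inferred pairing.

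Alternatives were that replicate block, no pool block, clusters with a group mean of at least 6 (8587), quantile normalization within tissue, array weights, the study's mixed model and its thresholds, the arrays of a tissue alone, and leaving out each pool in all its tissues. All members were named. Members of the pathway lists were named if called or if their pools did not overlap, with at most 5 per list, together with genes of the same step as a member. The genes most like a member were the 5 with the highest Pearson r. The members, lists and marker genes were chosen with earlier results of these data known. Figures were drawn in Python 3.11.15 (numpy 2.4.6, pandas 2.3.3, matplotlib 3.10.9).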

Additional observations from a re-analysis of the deposited data

Results flagged for a closer look

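Of 64 groups of 4 pools, 4 held a pool far from the other 3, where chance gives about 5% of groups. These were Thrb in control liver pool 1 (log2 value 8.29, the lowest), Thrb in control ileum pool 2 (7.58, the highest), Dio1 in control duodenum pool 2 (5.32, the highest) and Gpd2 in control ileum pool 3 (9.15, the lowest).

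The effect of lactation differed between the 4 tissues by the interaction test in limma for 3 members. For Ppargc1a the adjusted p was 0.00404, with differences from -1.40 in ileum to 0.03 in liver. For Thrsp it was 0.0198, with differences from -1.27 in jejunum to 0.04 in liver. For Gpd2 it was 0.0293, with differences from -1.10 in liver to -0.18 in duodenum.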

How the results depend on the processing

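Over the 8 members, 4 tissues and 16 alternatives, 470 of 512 differences kept their direction and their side of the threshold, 16 lost a call, 7 gained one and 19 changed sign. Fitting the arrays of a tissue alone ended 6 of the 9 calls: 1 member was called in liver, 1 in ileum and 0 in jejunum. That fit has fewer arrays from which to estimate the spread. With a pool left out, the number called ran from 1 to 3 in liver, 2 to 3 in jejunum and 2 to 3 in ileum, and was 1 throughout in duodenum. Averaged over the tissues, 5 members were called. The count was 7 with the replicate block and 2 with clusters under a group mean of 6 left out. By adjusted p-values of the mixed model it was 1 (Klf9). Leaving out a pool gave 1 to 5. The count was 1 without lactating pool 3, 2 without control pool 2 or 4 and 3 without control pool 3. The tissue interaction was called for 3 members, for 5 with low clusters left out, and for 0 to 3 with a pool left out (0 without lactating pool 4, 1 without control pool 2, 3 or 4). The cause of these moves was not tested. The replicate block changed the calls of Klf9 in liver and of Dio1 and Thrsp over the 4 tissues, and ended those of Dio1 in control jejunum against ileum and Klf9 in control duodenum against ileum (adjusted p = 0.0539 and 0.0647), and no other call of a member.

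The changes of sign were all in differences near 0 that were not called. With a pool left out, Thra in duodenum ran from -0.077 to 0.039, Rxra in jejunum from -0.044 to 0.053, Dio1 in duodenum from -0.069 to 0.33, Thrsp in duodenum from -0.20 to 0.093 and Ppargc1a in liver from -0.14 to 0.16. With array weights Thrsp in duodenum was 0.047 and Ppargc1a in liver -0.086. With 4 pools a group the Thrb call in jejunum sat near the threshold, and the size of difference that can be called depends on the spread of each gene. Values under the array medians, such as those of Dio2, may lie near background.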
